A study of Mus musculus with 2 samples.

Results

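A pair of capillary endothelial cell types lines the alveoli of the mouse lung, and the cells described here belong to the general capillary type, limited to those with few transcripts of MHC class II, the molecules that display antigen to helper T cells. Members were chosen from raw unique molecular identifier (UMI) counts of single cells. Kept barcodes had 500 or more genes and no more than 15% mitochondrial UMIs. A member then needed at least 3 UMIs in all of the general capillary genes Glp1r, Sema3c, Adgrl3 and Aplnr. These had to make up at least 60% of its UMIs from marker genes of general capillary, aerocyte, arterial, venous and lymphatic endothelium. It also had to hold fewer than 2 UMIs of Esm1 and Gzmk, fewer than 3 of the cell cycle genes Mki67 and Top2a, and fewer than 3 of the class II genes Cd74, H2-Aa and H2-Ab1. The rule took 6739 of 15651 kept cells (43.1%) in the library titled aWT and 4307 of 10785 (39.9%) in the library titled aKO, or 11046 of 26436 (41.8%) in all. The libraries were deposited with 15996 and 11045 barcodes.

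The series concerns pulmonary endothelium in a mouse model of hereditary haemorrhagic telangiectasia type 2, a vascular disease caused by loss of the receptor ALK1. Both libraries were made from dissociated lungs of C57BL/6J mice aged 10 to 12 weeks, from tdTomato-positive cells collected by flow sorting. The red reporter marks cells, and the descendants of cells, in which Cre was expressed from the promoter of VE-cadherin, an adhesion gene of endothelium, and both groups carry it. The labels give 1 library per group and state neither the deleted gene or exon nor the number or sex of the mice, so aKO and aWT are used as titles. With 1 library per group no test between groups was possible, and every difference is given as a size with no p-value. Intervals cover counting error only.

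General capillary cells (gCap) hold the receptor for apelin and the lipase anchor GPIHBP1, and serve as the progenitors that repair the capillary bed. Aerocytes, the other capillary type, are large cells with carbonic anhydrase 4 and the endothelin receptor EDNRB that are placed for gas exchange. BMP9 and BMP10 from the blood bind ALK1 with BMPR2 and endoglin on endothelium, and the SMAD proteins that they activate switch on Id1, Id2, Id3, Smad6 and Smad7, of which the last 2 inhibit the pathway.

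Members held 24348674 UMIs in aWT and 21182975 in aKO. Their median was 3348 UMIs and 1791 genes per cell in aWT against 4511 UMIs and 2269 genes in aKO. Mitochondrial UMIs had a median of 2.39% in aWT and 1.27% in aKO, and 307 members (4.56%) and 1111 members (25.8%) lay under 0.5%. Scrublet called 200 aWT and 80 aKO members doublets, and these were kept in the values below. Of the sex-linked genes, Xist stood at 4.52 CPM (UMIs per 1000000) in aWT and 739.9 CPM in aKO, and the Y-linked Ddx3y at 102 CPM in aWT with 0 UMIs in aKO. The sex of the mice and the aKO title therefore cannot be told apart. The alveolar epithelial gene Sftpc stood at 175 and 6.94 CPM and the airway gene Scgb1a1 at 69.9 and 10.4 CPM. The libraries shared 48 barcode sequences, 7 of them members in both. CPM comes from counts of transcript 3' ends and is not corrected for gene length.

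The 4 chosen genes are a description of the rule, not a finding. Adgrl3, an adhesion receptor, gave 59.0% of the members' marker UMIs in aWT and 78.5% in aKO. Sema3c, a secreted semaphorin, gave 33.2% and 17.5%, and Glp1r, the receptor for the incretin GLP-1, gave 6.42% and 3.22%. The mixture that let a cell pass the rule therefore differed between the libraries: without Adgrl3, 82.4% of aWT members but 68.4% of aKO members would still reach 3 UMIs. Sema3c itself stood at 2513 CPM in aWT against 1105 CPM in aKO (-1.18), and Glp1r at 485 CPM in aWT against 203 CPM in aKO (-1.24), whereas Adgrl3 stood at 4457 CPM in aWT against 4943 CPM in aKO (0.15). In 3431 aWT members (50.9%) and 2718 aKO members (63.1%) every UMI of the 5 marker groups came from these 4 genes.

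Gpihbp1, which was not part of the rule and encodes the anchor that holds lipoprotein lipase on the capillary wall, was abundant in members. It stood at 726 CPM (715 to 737) in aWT against 562 CPM (552 to 572) in aKO (log2 ratio -0.37) in members, against 68.3 and 48.9 CPM (63.7 to 73.2 and 43.8 to 54.4) in aerocyte cells chosen by the same kind of rule (2442 in aWT and 1109 in aKO). The intervals of members and aerocytes did not overlap in either library. The stem cell factor receptor gene Kit stood at 650.2 and 277 CPM in members and 25.9 and 8.60 CPM in aerocytes. Plvap, which forms the diaphragms of caveolae and fenestrae, stood at 1168 and 899 CPM against 72.7 and 48.2 CPM. Ednrb, the endothelin receptor of aerocytes, ran the other way, at 25.8 and 29.1 CPM in members and 1422 and 1311 CPM in aerocytes. Leukocyte genes summed to 26.2 CPM in aWT members and 2.22 CPM in aKO members, of which Lyz2 gave 24.4 and 0.614 CPM, and Ptprc, the defining CD45 gene, stood at 0.0821 and 0 CPM.

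**Figure D1:**
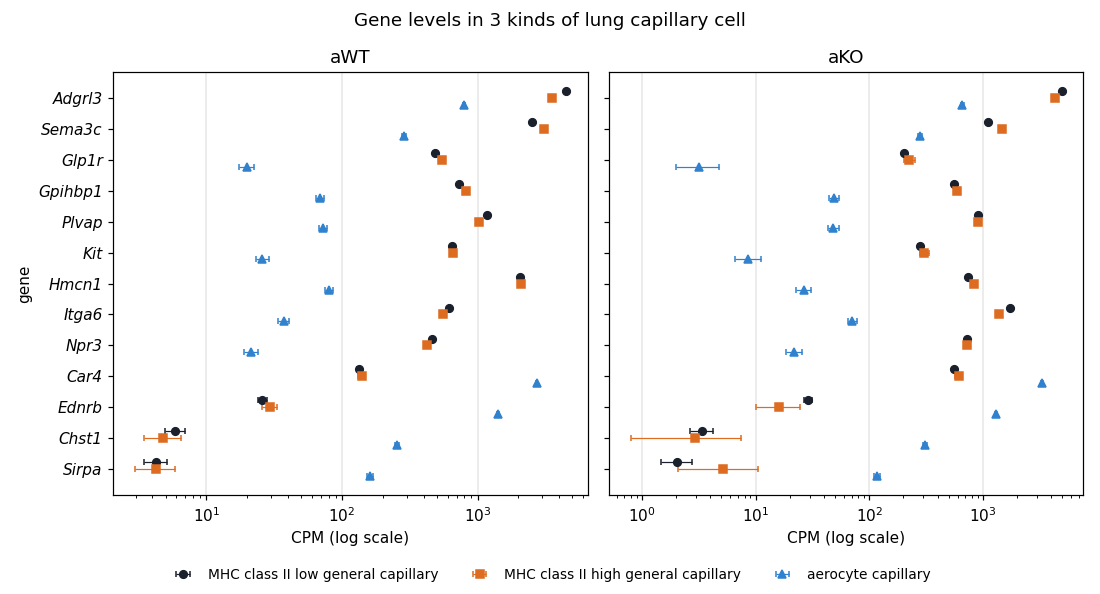
CPM on a log axis of 3 general capillary genes of the rule (Adgrl3, Sema3c, Glp1r) and of general capillary and aerocyte genes outside it, for members (circles), MHC class II high general capillary cells (squares) and aerocyte cells (triangles) of each library, with exact Poisson 95% intervals. Gpihbp1, Kit and Plvap lie higher in both general capillary classes than in aerocytes, and Ednrb lies lower.

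Across all genes with at least 50 CPM in 1 of the 4 sums, 309 of 4713 (6.56%) were at least 2-fold higher in members than in aerocytes in both libraries and 246 (5.22%) were lower. These contrasts come from marker rules on the same cells and are descriptions. In this and every later ratio 5 CPM was added to both values before the log2 was taken. Lists were counted at 1.5-fold and 5 CPM in a single library, where 12.8% of 10577 genes were higher in members than in aerocytes and 11.3% lower in aWT, and 11.5% and 9.41% of 10553 in aKO. Of 16 general capillary genes outside the rule, 15 were at least 1.5-fold higher in members in aWT and none lower, and in aKO 12 were higher and 1 lower. Of the aerocyte genes, 12 of 14 were lower in members in aWT and 12 of 15 in aKO, with 1 and 2 higher. Ranked by the smaller of the ratios of both libraries, the first gene was Hmcn1, which encodes the extracellular matrix protein hemicentin-1, at 2059 CPM in members and 80.1 CPM in aerocytes of aWT and 735 and 26.4 CPM in aKO (log2 ratios 4.60 and 4.56). In aKO alone Npr3 (4.79) and Sntb1 (4.59) had higher ratios. The annotated antisense gene Gm20631 overlaps Hmcn1. Kit, the dystrophin partner gene Sntb1, the natriuretic peptide clearance receptor gene Npr3, the membrane skeleton gene Epb41, Plvap, the laminin-binding integrin gene Itga6, the G protein gene Gna14, the phospholipase gene Plcb1 and the adhesion gene Cadm1 followed. Among the lowest were Ednrb, AW112010, Tmeff2, the phosphodiesterase gene Pde8b, Egflam, the sulfotransferase gene Chst1, the integrin gene Itgb5, the CD47 receptor gene Sirpa and Ccdc184.

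Members close to the limits of the rule were as follows. With exactly 3 marker UMIs there were 89 members in aWT and 66 in aKO, with Gpihbp1 at 639 and 508 CPM. With 2 marker UMIs, just outside, there were 75 and 50 cells, with Gpihbp1 at 601 and 490 CPM. Kit was 439 CPM inside and 263 CPM outside in aWT, and 219 and 172 CPM in aKO. Members with 60 to 80% of their marker UMIs from the 4 genes numbered 527 and 320, and here Gpihbp1 was 533 and 301 CPM and the aerocyte gene Car4 251 and 283 CPM. At 40 to 60%, just outside, there were 589 and 288 cells, with Gpihbp1 at 376 and 258 CPM and Car4 at 591 and 461 CPM. In aWT, Car4 was lower in members with all marker UMIs from the 4 genes (129.8 CPM) than in those at 60 to 80% (251 CPM). In aKO the order was the opposite, at 629 CPM with all and 283 CPM at 60 to 80%.

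Of all general capillary barcodes, low and high, the low class made up 79.6% (6739 of 8461, Clopper-Pearson 95% interval 78.8 to 80.5%) in aWT and 95.8% (4307 of 4496, 95.2 to 96.4%) in aKO. The class II sum chose these cells, so the shares describe the rule at the depth of each cell. In aWT the low share was 98.1% below 2000 UMIs, 87.2% at 2000 to 3000, 78.1% at 3000 to 4500, 70.9% at 4500 to 6000, 62.6% at 6000 to 9000 and 54.2% above. In aKO it was 99.8%, 98.4%, 96.7%, 94.4%, 93.6% and 90.8% in the same bins. A shallow cell was thus low more often than a deep cell in both libraries, and at each depth the aKO share was the higher. Kept cells were then thinned to 2000 UMIs, which left out 1355 aWT and 893 aKO general capillary cells below that depth, and the whole rule was applied anew. Of the general capillary cells found in this way, 89.8% of 7214 in aWT and 98.9% of 3544 in aKO were in the low class. No UMI of the 3 class II genes was left in 60.3% and 89.1% of these cells.

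**Figure D2:**
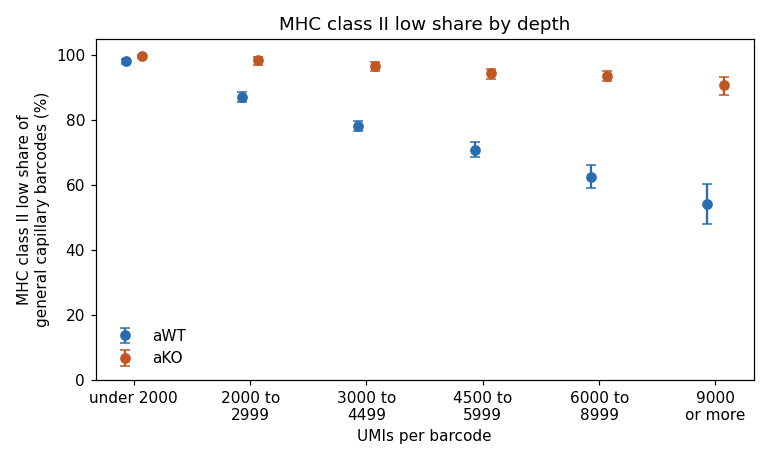
Share of general capillary barcodes with fewer than 3 class II UMIs (percent) in bins of UMIs per cell, by library, with Clopper-Pearson 95% intervals. The share falls with depth in both libraries, from 98.1 to 54.2% in aWT and from 99.8 to 90.8% in aKO.

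H2-Aa encodes a chain of the class II molecule itself, and H2-DMa and H2-DMb1 the chains of H2-DM, which exchanges the peptides that class II molecules carry. H2-Aa was part of the rule, and the H2-DM genes, which lie close to it in the MHC on chromosome 17, were not. Their promoters are shown because the H2-DM genes were lower in members than in class II high cells of both libraries. The stretches run from 250 bases before to 50 bases after the transcription start in RefSeq (GRCm38.p6), and capitals mark matches of CCAAT on either strand, the core of the Y box of class II promoters. H2-Aa lies at chr17:34287774-34288073 on the minus strand and H2-DMb1 at chr17:34152941-34153240 on the plus strand.
H2-Aa: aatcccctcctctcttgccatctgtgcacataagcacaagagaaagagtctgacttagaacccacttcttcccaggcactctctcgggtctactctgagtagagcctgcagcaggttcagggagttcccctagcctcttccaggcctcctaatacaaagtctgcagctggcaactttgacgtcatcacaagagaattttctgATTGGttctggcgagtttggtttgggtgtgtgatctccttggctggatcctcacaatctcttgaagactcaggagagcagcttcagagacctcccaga
H2-DMb1: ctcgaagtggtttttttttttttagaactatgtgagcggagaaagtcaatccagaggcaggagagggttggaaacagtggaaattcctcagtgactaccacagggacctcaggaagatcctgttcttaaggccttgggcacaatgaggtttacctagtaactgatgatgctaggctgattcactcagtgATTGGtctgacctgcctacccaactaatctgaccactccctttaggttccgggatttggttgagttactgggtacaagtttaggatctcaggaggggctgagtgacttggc
Each stretch held 1 match, read as ATTGG on the gene's strand. CCAAT was found in 37.4% of 32851 such stretches. The first of 2 listed starts of H2-DMa held none.

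Members differed from the 1722 aWT and 189 aKO class II high general capillary cells in few genes. Genes outside the rule were counted if they had at least 50 CPM in members or class II high cells of either library. Of these 4493, 1 was at least 1.5-fold higher in members in both libraries (0.0223%) and 7 were lower (0.156%). H2-DMa and H2-DMb1 reached 50 CPM only in aWT class II high cells, Lrg1 only in aKO class II high cells and Osmr only in aWT members. These genes thus passed the minimum only through the class where they were highest. In single libraries 13 were higher and 13 lower in aWT, and 41 and 54 in aKO, where the high class had fewer cells. These counts changed with the settings, from 0 to 13 higher and from 3 to 28 lower over 16 alternatives. The median of all genes was 0.00 in aWT and 0.02 in aKO.

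H2-DMa stood at 16.1 CPM in members and 54.6 CPM in class II high cells of aWT (log2 ratio -1.50), and at 7.88 and 31.5 CPM in aKO (-1.50). H2-DMb1 stood at 12.8 and 54.0 CPM in aWT (-1.73) and 5.05 and 34.4 CPM in aKO (-1.97). Both genes of the dimer were lower in members of both libraries. H2-DMa overlaps Gm50336 on its own strand and Brd2 and Gm50335 on the other, and reads of overlapping genes cannot be told apart without knowing how the counting used strand. Lrg1, a secreted glycoprotein gene, was at 13.4 and 23.3 CPM in aWT and 25.1 and 55.7 CPM in aKO, but its log2 ratio in aKO was -0.14 without called doublets, and it was -0.27 and -0.21 between 3000 and 6000 UMIs.

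The other 4 lower genes, Sftpc, Sftpa1, Lyz2 and Scd1, are highly expressed in alveolar type 2 cells, with Lyz2 also a macrophage gene. Sftpc stood at 175 CPM in members and 1017 CPM in class II high cells of aWT, and at 6.94 and 1206 CPM in aKO. In the high class, 6 aWT barcodes and 1 aKO barcode held at least 10 UMIs of alveolar genes, and no member did. Without barcodes holding 2 or more alveolar UMIs, 3 genes remained lower, H2-DMa, H2-DMb1 and Lrg1, and Sftpc had log2 ratios of 0.36 and 0.45.

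The 1 higher gene was Osmr, the receptor of the cytokine oncostatin M, at 54.5 and 34.6 CPM in aWT (log2 ratio 0.59) and 37.6 and 19.0 CPM in aKO (0.83, from 26 UMIs in the high class). Its aWT ratio was 0.20 after thinning to 2000 UMIs. Prkg1, the cGMP-dependent kinase of the nitric oxide pathway, passed 1.5-fold in aWT and lay just under it in aKO, at 928 and 580.2 CPM in aWT (0.67) and 547 and 368 CPM in aKO (0.57). Cd81, a tetraspanin gene, was at 58.2 and 86.8 CPM in aWT and 97.9 and 145 CPM in aKO, on the lower side but under 1.5-fold in both. Of 9 other class II and processing genes, 3 were lower in members in aWT and 5 in aKO, with none higher. By the same count over all genes, at 1.5-fold and 5 CPM, 0.379% of 10297 were lower and 0.311% higher in aWT, and 3.63% of 10655 lower and 2.04% higher in aKO.

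In aWT the H2-DM genes rose at each step of the class II sum and not only across the limit of 3. In aKO the rise was uneven. H2-DMa in aWT was 11.1 CPM in cells with a class II sum of 0, 21.9 at 1, 24.5 at 2, 42.0 at 3, 46.6 at 4, 57.8 at 5 to 9 and 79.3 at 10 or more. In aKO it was 6.70 CPM at 0, 12.9 at 1 and nearly the same at 2, then 25.7 at 3, 21.0 at 4, 34.1 at 5 to 9 and 66.5 at 10 or more. The aKO values from 3 upward came from 14, 7, 11 and 11 UMIs. Members with 2 UMIs and high cells with 3, which sit on either side of the limit, thus differed by less than the ends of the series. H2-DMb1 went from 7.65 to 88.2 CPM in aWT and from 3.44 to 78.6 CPM in aKO. H2-K1, a class I gene of the same chromosome region, went from 1732 to 2870 CPM and from 1620 to 2400 CPM, while Prkg1 in aWT went from 1083 CPM at 0 to 384 CPM at 10 or more. Median depth also differed along these steps, from 3039 UMIs at 0 to 5004 at 10 or more in aWT. The last step, of 213 aWT and 21 aKO cells, also held alveolar RNA. Sftpc stood there at 6293 and 9931 CPM, against 147 and 0 CPM at 5 to 9. In aKO the last step also held Ptprc at 36.3 CPM. At 5 to 9, H2-DMb1 was 56.4 and 31.0 CPM, H2-K1 2528 and 2246 CPM, and Prkg1 in aWT 558 CPM. The part of alveolar or leukocyte RNA in the last step was not tested.

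**Figure D3:**
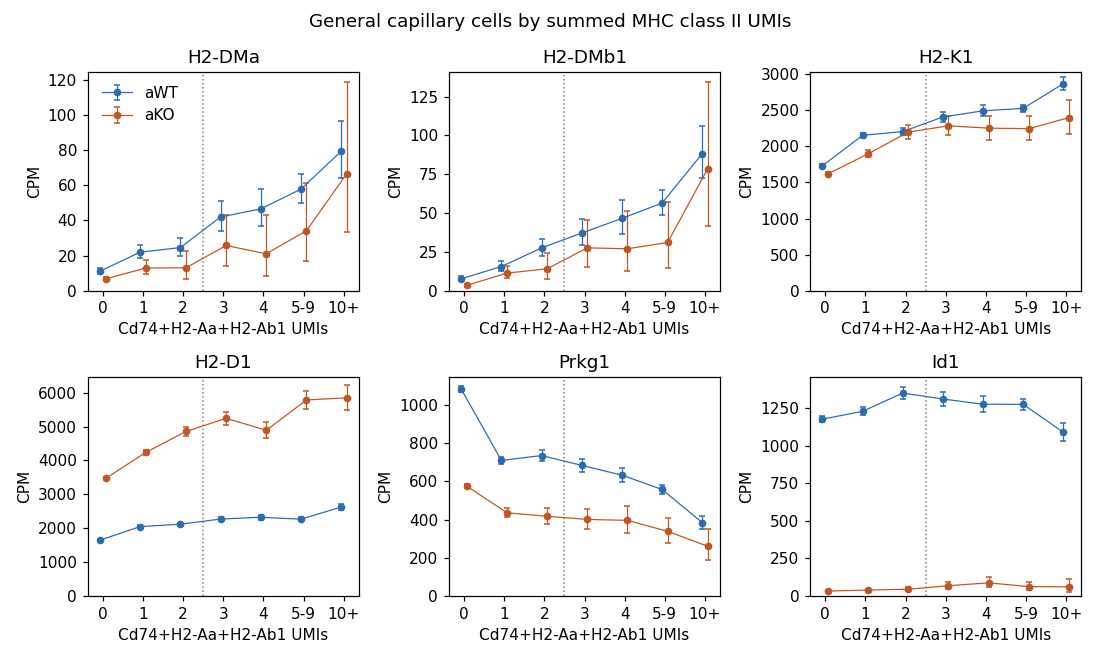
CPM of 6 genes outside the rule, on linear axes from 0, in general capillary cells grouped by the summed UMIs of Cd74, H2-Aa and H2-Ab1, by library, with exact Poisson 95% intervals and a dotted line at the limit of the low class. H2-DMa goes from 11.1 to 79.3 CPM in aWT and from 6.70 to 66.5 CPM in aKO between the first step and the last.

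Members of aKO and aWT were compared next, gene by gene. Of 4315 genes with at least 50 CPM in 1 library, 171 lay 2-fold or more above aWT in aKO (3.96%) and 133 lower (3.08%). The median log2 ratio of all 4315 was 0.09. Which side held more genes depended on the scaling, as given below. Gene lists used 1.5-fold and 5 CPM, under which 912 of 10523 genes were higher (8.67%) and 654 lower (6.21%), with a median of 0.10.

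Genes of the ALK1 and BMP9 response list were mostly lower in aKO members. Of 17 measured genes, 13 were lower and 2 higher (median -1.19, the value of Eng). The 13 include the receptor genes Bmpr2, Eng and Acvrl1, which the receptor list below counts again. They also include Kdr, Cxcr4, Tspan18 and Smad9. Id3 stood at 943 CPM (930.4 to 955) in aWT against 21.5 CPM (19.6 to 23.6) in aKO (log2 ratio -5.16), Id1 at 1219 CPM (1205 to 1233) in aWT against 33.7 CPM (31.3 to 36.3) in aKO (log2 ratio -4.98) and Id2 at 113 CPM (108 to 117) in aWT against 7.41 CPM (6.30 to 8.67) in aKO (log2 ratio -3.24), with counting intervals far apart between the libraries. The Id proteins bind helix-loop-helix transcription factors and keep them off DNA. Smad6 stood at 960.3 CPM in aWT against 152 CPM in aKO (-2.62) and Smad7 at 639.5 CPM in aWT against 98.3 CPM in aKO (-2.64), so both inhibitory SMAD genes lay on the same side as the Id genes. Hey1, which encodes a repressor shared with Notch signalling, was at 188 CPM in aWT against 44.5 CPM in aKO (-1.97), and Tmem100, an endothelial membrane protein gene, at 2181 CPM in aWT against 1934 CPM in aKO (-0.17), within 1.5-fold. The 2 higher genes were the cell cycle inhibitor gene Cdkn1a, at 243 CPM in aWT against 483 CPM in aKO (0.98), and the CXCL12 scavenger receptor gene Ackr3, at 129 CPM in aWT against 557 CPM in aKO (2.07).

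The promoters of Id2 and Id3 are shown because these genes, with Id1, lay among the 5 lowest of the comparison. Capitals mark matches of GGCGCC, a sequence that reads the same on both strands and to which BMP-activated SMADs can bind. Id2 lies at chr12:25096043-25096342 on the minus strand and Id3 at chr4:136143572-136143871 on the plus strand.
Id2: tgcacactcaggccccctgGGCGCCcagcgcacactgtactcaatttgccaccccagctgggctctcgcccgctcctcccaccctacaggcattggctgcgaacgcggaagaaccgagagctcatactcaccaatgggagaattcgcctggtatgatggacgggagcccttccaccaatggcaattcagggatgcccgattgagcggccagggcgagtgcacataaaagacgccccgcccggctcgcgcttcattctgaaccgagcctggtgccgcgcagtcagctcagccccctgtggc
Id3: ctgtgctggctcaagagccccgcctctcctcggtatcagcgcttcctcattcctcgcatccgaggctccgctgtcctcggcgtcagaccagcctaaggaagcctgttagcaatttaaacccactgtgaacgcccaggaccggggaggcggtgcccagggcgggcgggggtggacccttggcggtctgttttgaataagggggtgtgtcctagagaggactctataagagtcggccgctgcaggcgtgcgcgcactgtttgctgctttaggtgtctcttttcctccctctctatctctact
Id2 held 1 match and Id3 none in this window, and 11.9% of the 32851 stretches held the sequence.

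Of the ALK1 receptor complex and SMAD list, 14 genes were measured, with 3 lower and 2 higher (median 0.07). The lower genes were the receptors: Bmpr2 at 2878 CPM in aWT against 977 CPM in aKO (-1.55), the co-receptor gene Eng at 1274 CPM in aWT against 554 CPM in aKO (-1.19) and Acvrl1, which encodes ALK1, at 1086 CPM (1073 to 1099) in aWT against 631 CPM (620.4 to 642) in aKO (log2 ratio -0.78). Counts of transcript 3' ends need not fall in a deleted part of a gene, so the value of Acvrl1 is no check of a deletion. The higher genes were Smad1, which carries the ALK1 signal, at 96.1 CPM in aWT against 426 CPM in aKO (2.09), and Smad3, of the TGF-beta branch, at 3.20 CPM in aWT against 8.07 CPM in aKO (0.67). Smad3 reached the list minimum of 5 CPM only in aKO, and both its values lay near that minimum. Response genes were mostly lower in the class II high cells of aKO too. There 11 of 16 were lower and 1 higher (median -0.97), against 6.34% lower and 10.8% higher of 10737 genes (median 0.08). Members of aKO were lower than the 189 aKO class II high cells in 3 of 16 response genes. These were Id1 (33.7 against 70.3 CPM), Id2 (7.41 against 33.0 CPM) and Id3 (21.5 against 66.6 CPM). Over all genes 3.63% were lower in aKO, and in aWT 0 of 17 response genes were lower. After thinning to equal depth the aKO shares of cells with a UMI had overlapping intervals. Id1 was seen in 4.80% (4.11 to 5.57%) of members and 6.95% (3.75 to 11.6%) of high cells. Id3 was seen in 2.93% (2.39 to 3.55%) and 5.35% (2.59 to 9.61%). The part of alveolar or leukocyte RNA in this difference was not tested.

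The 12 genes with the highest ratios in aKO members included guidance and matrix genes. St6galnac5, a sialyltransferase gene, stood at 0.780 CPM (0.470 to 1.22) in aWT against 565 CPM (555 to 575) in aKO (log2 ratio 6.62) and was seen in 19 UMIs of all aWT members. Arsj, of the arylsulfatase family, stood at 2.67 CPM in aWT against 141 CPM in aKO (4.25) and the semaphorin gene Sema5a at 1.52 CPM in aWT against 82.0 CPM in aKO (3.74). All 3 were nearly absent from aWT members. Hdac9, a class IIa histone deacetylase gene, stood at 165 CPM in aWT against 1782 CPM in aKO (3.39), whereas in aerocytes it was 59.9 and 92.4 CPM (0.58). The laminin chain gene Lama4 was at 14.9 CPM in aWT against 196 CPM in aKO (3.33), and the sialomucin gene Cd34, a ligand for leukocyte selectin, at 86.7 CPM in aWT against 639 CPM in aKO (2.81).

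The other 6 of the 12 were signalling, channel and growth factor receptor genes. Map3k6, a kinase gene of the MAP kinase cascade, stood at 4.81 CPM in aWT against 78.7 CPM in aKO, Trp53i11, a p53-induced gene, at 13.02 CPM in aWT against 148 CPM in aKO, and Rprml, a relative of the p53 target reprimo, at 2.26 CPM in aWT against 54.9 CPM in aKO. Kcnj2, the inward rectifier potassium channel gene, stood at 4.52 CPM in aWT against 57.6 CPM in aKO, the phosphatase gene Ctdspl at 17.4 CPM in aWT against 139 CPM in aKO, and the fibroblast growth factor receptor gene Fgfr1 at 5.30 CPM in aWT against 59.3 CPM in aKO. Their log2 ratios ran from 2.64 for Fgfr1 to 3.09 for Map3k6. St6galnac5, Arsj, Sema5a, Cd34, Ctdspl and Fgfr1 overlap annotated genes on the opposite strand, and Hdac9 overlaps Gm47357 on its own, so reads of these pairs cannot be told apart.

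Among the 12 lowest, beside Id1, Id2, Id3 and Smad7, were Edn1, the vasoconstrictor endothelin-1, at 187 CPM (182 to 193) in aWT against 10.9 CPM (9.50 to 12.4) in aKO (log2 ratio -3.60), Vegfa, the main ligand of VEGF signalling, at 405 CPM in aWT against 52.7 CPM in aKO (-2.83), and the connexin 37 gene Gja4 at 173 CPM in aWT against 23.8 CPM in aKO (-2.63). The Edn1 difference was not seen in aerocytes, where it was 24.7 and 25.5 CPM (log2 ratio 0.04), low in both libraries. The chaperone gene Hsph1 stood at 214 CPM in aWT against 27.4 CPM in aKO (-2.75). The noncoding ones were 3: 4930444A19Rik, antisense to Ankrd44, at 190.0 CPM in aWT against 21.5 CPM in aKO, Gm20631, antisense to Hmcn1, at 183 CPM in aWT against 22.5 CPM in aKO, and AY036118, which lies opposite the ribosomal RNA-overlapping Gm42418, at 1309.6 CPM in aWT against 176 CPM in aKO. The last of the 12, Sftpc, stood at 175 CPM in aWT against 6.94 CPM in aKO (-3.91). Barcodes with 2 or more alveolar UMIs were 91 of the aWT members (1.35%) and 2 of the aKO members (0.0464%), and the part of free alveolar RNA in this ratio was not tested.

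Class II high cells gave the same direction for each of the 24 genes other than Sftpc (0.25), among them St6galnac5 (6.04), Hdac9 (3.21), Id3 (-3.82) and Edn1 (-2.43). In aerocytes the log2 ratio was 3.73 for St6galnac5, -3.86 for Id3 and -0.45 for Gja4. Whether the ratios of the cell classes differ was not tested. All 24 genes kept their direction and 2-fold size in each of 13 alternative settings. They were chosen as the furthest apart in these same cells, the least extreme being Fgfr1 (2.64) and Gja4 (-2.63). Their choice thus nearly settled this result, which does not extend to other genes.

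**Figure D4:**
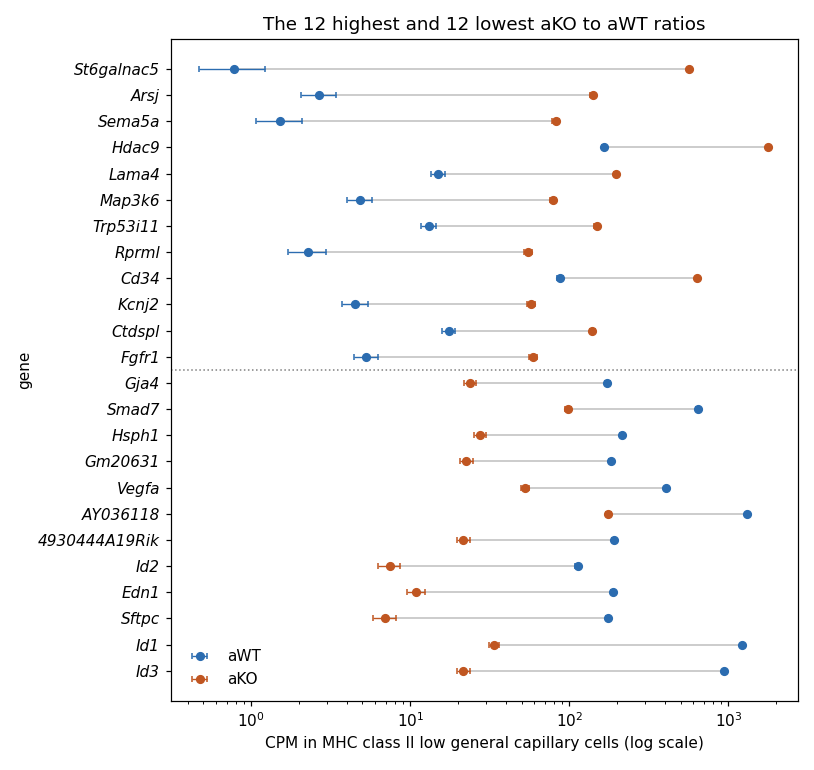
CPM on a log axis, with exact Poisson 95% intervals, of the 12 highest and 12 lowest genes by aKO over aWT ratio in members, with the points of the libraries joined by a line. The aKO points lie right of the aWT points for the upper 12 genes and left of them for the lower 12, and no pair of intervals overlaps. The genes were chosen by these ratios.

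General capillary genes outside the rule were mostly lower in aKO members, and aerocyte genes lay on both sides. Over all genes 8.67% were higher and 6.21% lower. Of 16 general capillary genes, 9 were lower and 1 higher (median -1.19). Beside Edn1, the chemokine gene Cxcl12 stood at 466 CPM in aWT against 82.8 CPM in aKO (-2.42), Bmp6, a BMP ligand gene, at 1439.5 CPM in aWT against 439.5 CPM in aKO (-1.70), Kit at 650.2 CPM in aWT against 277 CPM in aKO (-1.21) and Hpgd, which breaks down prostaglandins, at 3824 CPM in aWT against 1703 CPM in aKO (-1.16). The adhesion gene Cadm1, the C-type lectin-like receptor gene Cd93, the clotting carrier gene Vwf and the collagen-binding integrin gene Itga1 were the other lower genes. The 1 higher gene was Lyve1, the hyaluronan receptor gene used as a lymphatic marker, at 656 CPM (645 to 666) in aWT against 2757 CPM (2735 to 2779) in aKO (log2 ratio 2.06). Of 5 measured lymphatic genes 2 were higher, Lyve1 and the chemokine gene Ccl21a at 41.4 CPM in aWT against 77.2 CPM in aKO (0.83), which compares with 9889 and 10562 CPM of Ccl21a in lymphatic cells. Lymphatic cells made up 3.37% of kept cells in aWT and 16.2% in aKO. The part of free lymphatic RNA in these ratios was not tested.

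Of 15 aerocyte genes, 4 were higher in aKO members, 3 lower and 8 within 1.5-fold (median 0.14). The median ran from -0.06 to 0.20 over 13 settings, so its sign changed. Car4, the carbonic anhydrase of aerocytes, stood at 132 CPM (128 to 137) in aWT against 561 CPM (551 to 571) in aKO (log2 ratio 2.04), still below its 2720.1 and 3327 CPM in aerocytes. Prx, the periaxin gene, stood at 156 CPM in aWT against 499 CPM in aKO (1.64), the cytochrome P450 gene Cyp4b1 at 316 CPM in aWT against 567 CPM in aKO (0.83) and the long noncoding RNA gene Fendrr at 654 CPM in aWT against 1030.4 CPM in aKO (0.65). The VEGF receptor gene Kdr at 319 CPM in aWT against 139 CPM in aKO (-1.17), the co-receptor gene Nrp1 at 820.3 CPM in aWT against 330.0 CPM in aKO (-1.30) and the transcription factor gene Tbx3 at 309 CPM in aWT against 156 CPM in aKO (-0.96) lay on the other side. The aerocyte list therefore held genes on both sides.

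The share of cells with a UMI, at 2000 UMIs per cell in 5410 aWT and 3416 aKO members (1329 and 891 shallower members were left out), showed how widely the differences were spread. Id1 was seen in 80.2% (79.2 to 81.3%) of aWT members and 4.80% (4.11 to 5.57%) of aKO members. In lymphatic cells the shares of Id1 were 18.2 and 19.9%, so in aKO fewer members than lymphatic cells held it, and the lymphatic share is no background level for this gene. Without thinning the Id1 shares of members were 84.6 and 10.5%, and median depths of lymphatic cells were 4154 and 6920 UMIs.

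St6galnac5 was seen in 0.129% of aWT and 48.4% of aKO members, against 0 of 424 lymphatic cells in aWT and 1.05% in aKO. Hdac9 was seen in 19.0 and 86.9% of members and 3.30 and 5.83% of lymphatic cells. Both were thus seen in a large part of aKO members and few lymphatic cells, but neither was particular to members. In aKO, St6galnac5 was seen in 35.8% of class II high cells and 35.0% of aerocytes, and Hdac9 in 84.5 and 12.3%. Car4 was seen in 19.0 and 53.7% of members, 3.77 and 2.79% of lymphatic cells and 95.7 and 94.9% of aerocytes. Cd34 was seen in 14.7 and 64.2% of members and 61.9 and 88.3% of aerocytes. Kit was seen in 68.0 and 39.8% of members and 4.27 and 1.16% of aerocytes. Without thinning the shares in aWT and aKO members were 0.282 and 60.6% for St6galnac5, 25.6 and 92.0% for Hdac9, 26.9 and 63.8% for Car4, 22.2 and 73.7% for Cd34 and 77.8 and 61.1% for Kit.

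Antigen presentation genes outside the rule held lower class II genes and 1 class I gene on each side. Shares over all genes were 8.67% higher and 6.21% lower in aKO members. Of 8 other class II and processing genes, 3 were lower in aKO members and 0 higher (median -0.29): Ciita, the master regulator of class II transcription, at 16.3 CPM in aWT against 2.55 CPM in aKO (-1.50), H2-DMb1 at 12.8 CPM in aWT against 5.05 CPM in aKO (-0.83) and H2-DMa at 16.1 CPM in aWT against 7.88 CPM in aKO (-0.71). In members with no class II UMI, H2-DMa was 11.1 and 6.70 CPM, H2-DMb1 7.65 and 3.44 CPM and Ciita 13.6 and 2.21 CPM. Over 13 settings the ratio ran from -0.94 to -0.37 for H2-DMa and from -1.19 to -0.39 for H2-DMb1, so 1.5-fold was not always reached. The part of the class II limit in these ratios was not tested. Of 16 class I and processing genes, H2-D1 was higher at 1828 CPM in aWT against 3643 CPM in aKO (0.99) and H2-Q7 lower at 497 CPM in aWT against 256 CPM in aKO (-0.94) (median -0.11). Class I genes are near-identical copies, and how their reads were divided is not known. Of 24 interferon response genes 4 were lower and 1 higher (median -0.15), with the GTPase gene Iigp1 at 126 CPM in aWT against 50.3 CPM in aKO (-1.25) and the small mitochondrial protein gene Ifi27l2a, which has a close paralog, at 5.83 CPM in aWT against 30.2 CPM in aKO (1.70).

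VEGF and Notch genes lay on both sides of the aWT level, where 8.67% of all genes were higher in aKO members and 6.21% lower. Of 15 VEGF and sprouting genes, 6 were lower and 2 higher (median -0.06). The higher genes were Plaur, the urokinase receptor gene, at 91.4 CPM in aWT against 391 CPM in aKO (2.04), and the lymphangiogenic ligand gene Vegfc at 258 CPM in aWT against 472 CPM in aKO (0.86). Of 5 angiopoietin and Tie genes 1 was lower, Angpt2, at 25.4 CPM in aWT against 9.96 CPM in aKO (-1.02). Of 12 Notch genes 4 were higher and 1, Hey1, was lower (median 0.12), with the ligand genes Dll1 at 64.7 CPM in aWT against 300.0 CPM in aKO (2.13), Jag2 at 32.9 CPM in aWT against 88.9 CPM in aKO (1.31) and Jag1 at 58.5 CPM in aWT against 107 CPM in aKO (0.82) and the feedback inhibitor gene Nrarp at 55.3 CPM in aWT against 126 CPM in aKO (1.12). These 3 ligand genes were higher, the ligand gene Dll4 was within 1.5-fold at 176 and 169 CPM, and the target Hey1, also on the ALK1 list, was lower.

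Of 12 shear response genes 2 were higher and 0 lower (median -0.02), beside 8.67% higher and 6.21% lower over all genes. The 2 higher genes were Nos3, the endothelial nitric oxide synthase gene, at 36.3 CPM in aWT against 99.6 CPM in aKO (1.34), and the semaphorin receptor gene Plxnd1 at 77.6 CPM in aWT against 147 CPM in aKO (0.88). Klf2, the flow-induced transcription factor gene, was at 1939.6 and 2047 CPM, within 1.5-fold. Of 14 vasoactive genes 5 were higher and 3 lower (median 0.16). The lower genes were Edn1, its converting enzyme gene Ece1 at 803 CPM in aWT against 438 CPM in aKO (-0.87) and Calcrl, the receptor that binds adrenomedullin together with RAMP proteins, at 5655 CPM in aWT against 2423 CPM in aKO (-1.22). Its partner genes were higher, Ramp2 at 2552 CPM in aWT against 4084 CPM in aKO (0.68) and Ramp3 at 18.6 CPM in aWT against 49.3 CPM in aKO (1.20).

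Junction genes were higher in 5 of 15 cases and lower in 1 (median 0.28), beside 8.67% higher and 6.21% lower over all genes. The lower gene was Cdh5, VE-cadherin itself, at 2078 CPM in aWT against 1051 CPM in aKO (-0.98), whose promoter drives the Cre of both groups. The tight junction gene Cldn5 stood at 1887 CPM in aWT against 3059.9 CPM in aKO (0.70), the junctional adhesion gene F11r at 119.6 CPM in aWT against 354 CPM in aKO (1.53) and the paracingulin gene Cgnl1 at 27.4 CPM in aWT against 123 CPM in aKO (1.98). Of 9 caveola and fenestra genes 3 were higher, Cavin1, Cavin3 and Ehd2, and Ehd4 was lower (median 0.28). Of 13 lipid handling genes 1 was higher and 3 lower (median 0.12), with lipoprotein lipase, Lpl, at 469 CPM in aWT against 264 CPM in aKO (-0.82), the fatty acid transporter gene Cd36 at 2802 and 1933 CPM, and the HDL receptor gene Scarb1 at 121 CPM in aWT against 307 CPM in aKO (1.31). Of 13 leukocyte adhesion and chemokine genes 6 were higher and 5 lower (median 0.06), with Icam1 at 81.7 CPM in aWT against 44.9 CPM in aKO (-0.80), Icam2 at 629 CPM in aWT against 1104 CPM in aKO (0.81), Vcam1 at 19.3 CPM in aWT against 36.0 CPM in aKO (0.76) and the chemokine scavenger gene Ackr4 at 25.7 CPM in aWT against 1.79 CPM in aKO (-2.18).

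Surface and membrane-binding proteins were among the lists with higher genes only. By the same count 8.67% of all genes were higher in aKO members and 6.21% lower. Of 9 Ly6 and sialomucin genes 4 were higher and 0 lower (median 0.54): Ly6c1 at 532 CPM (523 to 541) in aWT against 2638 CPM (2616 to 2660.3) in aKO (log2 ratio 2.30), Ly6a, the Sca-1 gene, at 1302 CPM in aWT against 3194 CPM in aKO (1.29), Cd34 and Cd81. The Ly6 genes are a family of similar copies. Of 14 galectin, S100 and annexin genes 7 were higher and 0 lower (median 0.62), with S100a10, the partner of annexin A2, at 204 CPM in aWT against 596 CPM in aKO (1.52), Anxa2 at 199 CPM in aWT against 416 CPM in aKO (1.04) and Anxa3 at 376 CPM in aWT against 831 CPM in aKO (1.13). In the coagulation list of 13 genes, which also holds S100a10, Anxa2 and Plaur, 4 were higher and 1, Vwf at 289 CPM in aWT against 97.3 CPM in aKO (-1.52), lower (median 0.29), the other higher gene being the protein C receptor gene Procr. Of 14 basement membrane genes 2 were higher, Lama4 and Lamb2, and 0 lower (median 0.21).

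Of 23 endothelial transcription factor genes 3 were higher and 5 lower (median -0.32), beside 8.67% higher and 6.21% lower over all genes. Bcl6b stood at 59.3 CPM in aWT against 350.0 CPM in aKO (2.46), and the venous fate gene Nr2f2 at 25.8 CPM in aWT against 46.1 CPM in aKO (0.73). Sox18 at 403 CPM in aWT against 191 CPM in aKO (-1.06), Sox7 at 299.9 CPM in aWT against 174 CPM in aKO (-0.77) and Epas1, the hypoxia factor HIF-2 alpha, at 2363 CPM in aWT against 1418 CPM in aKO (-0.73) were lower. Of 18 semaphorin and plexin genes outside the rule 5 were higher and 5 lower (median 0.11), led by Sema5a and, on the lower side, by the receptor gene Plxna1 at 119 CPM in aWT against 23.4 CPM in aKO (-2.12) and Sema3g at 341 CPM in aWT against 112 CPM in aKO (-1.56). Of 11 arterial genes 6 were lower and 1 higher (median -0.88), and of 9 venous genes 4 were higher and 2 lower (median 0.41), with several genes shared with the lists above.

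Heat shock genes were mostly lower in aKO members. Among all genes 6.21% were lower and 8.67% higher in aKO members. Of 15 heat shock and chaperone genes 11 were lower and 0 higher (median -0.91), with Hspa1a, a near copy of Hspa1b, at 2513 CPM in aWT against 595 CPM in aKO (-2.07). Of 18 immediate early genes 5 were lower and 0 higher (median -0.21): Fos, Fosb, Jun, Atf3 and Zfp36. In class II high cells 11 of 15 heat shock genes were lower and 0 higher, beside 6.34% lower and 10.8% higher of 10737 genes. Immediate early genes of these cells lay on both sides. Of 18, 4 were lower (Fos, Fosb, Jun and Atf3) and 4 higher (Fosl2, Egr1, Nr4a1 and Nr4a2). Of 22 nuclear respiratory chain genes 3 were higher and 0 lower (median 0.49), and of 13 mitochondrially encoded genes 6 were lower and 0 higher (median -0.51). The mitochondrial share of UMIs differed between the libraries in the same direction, as given above, and its part in these counts was not tested.

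**Figure D5:**
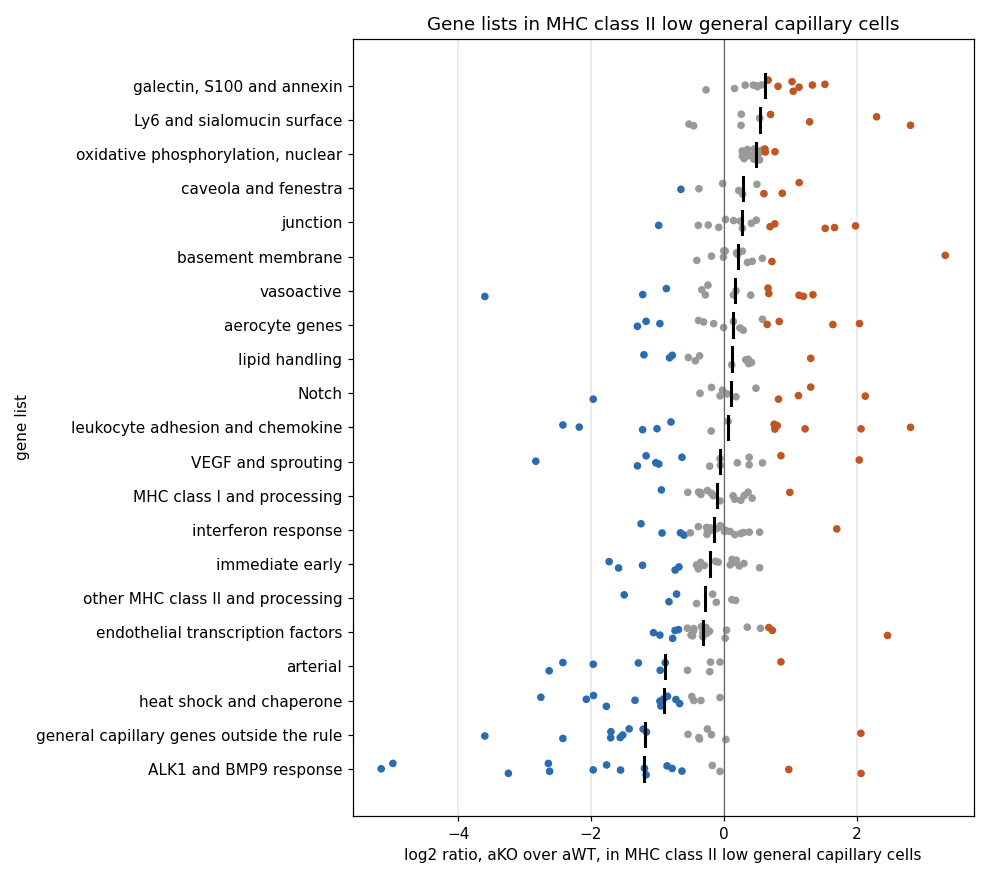
Log2 ratio of CPM in aKO over aWT in members for each measured gene of 21 lists (points) with the list median (black bar). Orange points lie 1.5-fold or more above 0, blue points 1.5-fold or more below, and the ALK1 response and general capillary lists have medians of -1.19.

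Ratios were also taken at matched mitochondrial shares, for 33 genes chosen with their values known. In 5 bins of mitochondrial UMIs, from under 0.5% to 4 to 15%, 29 of the 33 kept 1 direction throughout. Many of these genes had large ratios, whose sign could hardly change, and the count does not extend to all genes. The aKO over aWT log2 ratio of Id1 lay between -5.06 and -4.39, that of St6galnac5 between 5.87 and 6.87, that of Car4 between 1.92 and 2.47 and that of Kit between -1.24 and -1.01. The other 4 were Gpihbp1, Adgrl3, Malat1 and the fatty acid binding protein gene Fabp4. The ratio of Gpihbp1 was 1.25 in members under 0.5% and between -0.52 and -0.04 in the other bins, that of Malat1 0.08 and between -0.69 and -0.49, and that of Fabp4 lay above 0 under 0.5% (0.73) and at 2 to 4% and below 0 in the rest, as low as -0.99. Gm42418 kept its direction but was -0.53 under 0.5% and between -2.53 and -1.69 in the others. Among aWT members under 0.5%, Gpihbp1 was 195 CPM. The 1111 aKO members under 0.5% had a median of 2137 UMIs.

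Members also varied among themselves. At 2000 UMIs per cell, the ratio of variance to mean had a median of 1.11 over 3779 genes in aWT and 1.10 over 4071 in aKO. The nuclear RNA Malat1 had the highest value in both, 11.5 and 16.05, followed in aWT by Mgp, a matrix inhibitor of calcification, at 7.66 and in aKO by Gm42418 at 12.3 and Igfbp5, an insulin-like growth factor binding protein gene, at 8.73. Mgp was seen in 7.04% of thinned aWT members and Igfbp5 in 4.42% of thinned aKO members, so these values rest on a small part of the cells. Prkg1, at 4.33 in aWT, was seen in 60.6% of cells, and its level also differed with the class II sum. The chaperone genes Hspa1a, Hspa1b and Hspb1 were among the 10 most variable in both libraries, Hspa1a at 4.37 and 5.50. Ly6a at 3.68 and Ly6c1 at 3.61 were among the 10 in aKO.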

How the data were processed

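The authors deposited a matrix of whole-number UMI counts per gene and cell for each of 2 libraries, made per the submitters' processing notes with Cell Ranger 7.2.0 and mm10. The 10x Genomics 3' v3 chemistry is per the labels' protocols. How the counting used annotation, strand and introns is not given in the sources used here. From these counts, the UMIs of all cells in a class were added up within a library (Python 3.11.15, numpy 2.4.6, pandas 2.3.3, scipy 1.17.1) and divided by the class total to give CPM. Ratios added 5 CPM. Exact Poisson intervals were used for CPM and Clopper-Pearson intervals for shares, both at 95%. The cells of 1 library share their source and are not replicates, so sizes take the place of tests. Whether any library pools mice is not stated, and differences between mice, libraries and groups cannot be told apart.

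The named genes were the 12 highest and 12 lowest ratios of aKO over aWT, the 10 highest and 10 lowest in both libraries against class II high and aerocyte cells, the genes farthest from 0 in each list, and the 10 most variable; 1 gene under this rule is not reported here. The rule's own genes stayed out of the named genes and the counts, as did sex-linked, haemoglobin, immunoglobulin, ribosomal protein and mitochondrial genes. Chromosome positions came from GENCODE M21 spans on GRCm38 (mm10) and promoters from RefSeq, where 5 of 7 genes looked up had an entry. The size rule was checked on simulated counts: for aKO over aWT in members, over 3973 genes, it recovered 50 of 50 genes at each of 3-fold and 4-fold in either direction and called 0 of 3773 unchanged genes. These counts carried counting error only, so the check covers the arithmetic of the rule and no difference between mice or libraries. Doublets were called with Scrublet (scanpy 1.11.5) and kept. Alternatives covered the cell filters, marker limits, depth, thinning, scaling (TMM factors from edgeR 4.0.16), the CPM added and the minimum CPM. The members, lists and settings were chosen with earlier results of these data known.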

Additional observations from a re-analysis of the deposited data

Results flagged for a closer look

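Sulf1 and Apoe lay at least 1.5-fold apart in opposite directions in members and aerocytes. Sulf1, a heparan sulfate editing enzyme gene, had an aKO over aWT log2 ratio of -0.61 in members (57.1 CPM in aWT against 35.7 CPM in aKO) and 0.96 in aerocytes (58.6 and 118 CPM). Apoe, the lipid carrier apolipoprotein E gene, had a ratio of -0.77 in members (23.2 and 11.5 CPM) and 0.70 in aerocytes (56.6 and 94.9 CPM). With 1 library per group neither difference between the cell types was tested.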

How the results depend on the processing

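The 24 highest and lowest genes of aKO over aWT in members kept their direction and 2-fold size in all 312 recomputed ratios. Their choice as the most extreme genes nearly settled this. The share of general capillary cells in the low class depended on the definition. In aWT, 79.6% became 50.3% with no class II UMI allowed, 89.6% under 5, 77.1% with a minimum of 1000 genes and a maximum of 10% mitochondrial UMIs, 75.6% at 3000 to 6000 UMIs and 89.8% after thinning. In aKO, 95.8% became 81.5%, 98.5%, 98.9% after thinning and 94.7% at 0.5% or more mitochondrial UMIs. The count of genes 1.5-fold higher in members than in class II high cells, 1 as reported, was 0 with the stricter cell filter, a marker share of 80%, 20 CPM added or a minimum of 100 CPM. It was 2 with 1 CPM added, a minimum of 20 CPM, no minimum or without alveolar barcodes, 3 with TMM factors, 6 at 3000 to 6000 UMIs, 8 with no class II UMI, 11 as a mean over cells and 13 after thinning. The count of lower genes, 7 as reported, was 3 with a minimum of 100 CPM or without alveolar barcodes, 12 as a mean over cells, 16 with a minimum of 20 CPM, 26 after thinning and 28 with no minimum. The causes of these shifts were not tested.

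The ALK1 response median of -1.19 in members was -1.14 at 3000 to 6000 UMIs, -1.27 with no class II UMI, -1.25 as a mean over cells, -1.27 with TMM factors and -1.56 with 1 CPM added. With no minimum, 267 genes were 2-fold higher and 234 lower in aKO members, against 171 and 133. At 3000 to 6000 UMIs the log2 ratios of members over class II high cells changed sign for Lyz2 (0.079 in aKO), Sftpa1 (0.027 in aWT and 0.26 in aKO) and Sftpc (0.33 in aKO), and the pericyte list median of aKO over aWT became -0.021. Without alveolar barcodes they did so for Lyz2 (0.17 in both), Sftpa1 (0.36 and 0.17), Sftpc (0.36 and 0.45) and Scd1 (0.037 in aKO). At 0.5% or more mitochondrial UMIs the erythrocyte list median became -0.33, Hba-a1 -0.38 and Hbb-bs -1.11. The settings on mitochondrial share and alveolar barcodes were chosen after seeing the data. TMM factors moved the median of all genes by -0.07. Of the 2-fold calls of aKO over aWT in members, 56.25% were higher as reported and 49.0% with TMM factors. The counts against aerocytes stayed within 1.5 times of those reported in each setting.

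No paired analysis was possible because each group has 1 library. The number of cells limits the class II high class of aKO, with 189 cells against 1722 in aWT. Class II UMIs are sparse at these depths.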

Other observations

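The cell cycle, glycolysis, mesenchymal transition and pan-endothelial lists held genes on both sides in the general capillary cells with few class II UMIs. There 8.67% of all genes were higher in aKO and 6.21% lower. Of 15 proliferation and cell cycle genes 4 lay 1.5-fold or more above aWT in aKO and 1 below (median 0.15), with the cyclin genes Ccnd1 at 140.0 CPM in aWT against 260.4 CPM in aKO (0.87) and Ccnd2 at 78.3 CPM in aWT against 132 CPM in aKO (0.72) and the p53-induced gene Trp53inp1 at 37.4 CPM in aWT against 16.5 CPM in aKO (-0.98). Of 21 hypoxia and glycolysis genes 5 were higher and 1 lower (median 0.28), with the glycolytic genes Pkm at 79.5 CPM in aWT against 132 CPM in aKO (0.70) and Gapdh at 82.1 CPM in aWT against 141 CPM in aKO (0.74). Of 10 mesenchymal transition genes 3 were higher, among them the fibronectin gene Fn1 at 4.64 CPM in aWT against 9.58 CPM in aKO (0.60) and the matricellular gene Ccn2 at 41.5 CPM in aWT against 94.1 CPM in aKO (1.09), and 1, Zeb2, lower at 487 CPM in aWT against 265 CPM in aKO (-0.86) (median 0.29). Of 15 pan-endothelial genes 2 were higher and 4 lower (median 0.25).

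Markers of other cells were as follows in members. Pericyte, muscle and fibroblast genes summed to 17.7 CPM in aWT members and 38.0 CPM in those of aKO, and 2 of 3 measured genes, Acta2 and Myh11, were higher. Erythrocyte genes summed to 13.6 and 110.2 CPM, with 4 of 4 measured genes higher (median 1.94), but the median was -0.33 among members with 0.5% or more mitochondrial UMIs. Of 4 measured alveolar genes 3 were lower, Sftpc, Sftpb and Sftpa1, and Hopx was higher at 183 CPM in aWT against 685 CPM in aKO (1.87). Platelet genes summed to 1.56 and 0.755 CPM, and none was measured above 5 CPM. The part of these markers in the differences between the libraries was not tested.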
